A study of Mus musculus with 72 samples.

Results

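The genes of the integrins and of the laminin chains were followed in mouse melanoma lines given gastrin-releasing peptide (GRP), the ligand of the receptor GRPR. Members were rows of the count table whose symbol names an integrin alpha subunit, an integrin beta subunit or a laminin alpha, beta or gamma chain. This gave 36 members of 50600 genes, namely 18 alpha subunits, 8 beta subunits and 10 laminin chains. A member was tested in a line where it had at least 10 counts in at least 3 of the line's 12 libraries. By that filter 22 members were tested in all 6 lines, 6 in some lines and 8 in none (Itga11, Itgad, Itgal, Itgam, Itgax, Itgb2, Itgb6 and Itgb7). The 6 were Itga3, Itgae, Lama1, Lama2, Lama3 and Lamc3.

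RNA-seq was done on 72 libraries, 3 for each of 4 treatments in 6 lines. Each line was derived from 1 melanoma of a transgenic mouse, so a line stands for 1 tumour. The labels do not say whether replicates were separate cultures, and p-values measure only the spread between these libraries, which may be technical. All 6 lines carry Tyr::NRASQ61K/°, an oncogenic NRAS transgene under the tyrosinase promoter. Lines 1057 and 1064, both female, are labelled Cdkn2a-/- with Tyr::CreA/° and Cdh1dF/dF, express their own Grpr and are called ∆Ecad. The male line 1181 is labelled Cdkn2a-/- and Cdh1dF/dF with no Cre (°/°), and the female line 1014 carries the NRAS transgene alone in its label. Both were made into a receptor version by a CMV::Grpr/tGFP plasmid (1181-Grpr, 1014-Grpr) and a control version by CMV::tGFP (1181-Ctrl, 1014-Ctrl). The CMV promoter drives the added receptor outside its own control. After 18 h of starvation in 0.5% serum, the cells received for 4 h either mock (0.1% DMSO), 10 nM GRP, 1 µM of the GRPR antagonist RC-3095 (RC), or both.

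Integrins are receptors of an alpha and a beta subunit that hold cells to the matrix and signal from it. The beta1 subunit pairs with most alpha subunits, among them alpha3, alpha6 and alpha7, which bind laminin, alpha5, which binds fibronectin, and alpha4 and alpha9, which bind fibronectin's alternatively spliced parts, VCAM1, tenascin-C or osteopontin. The alpha-v subunit also pairs with beta3, beta5 and beta8, and integrins of alpha-v with beta8 activate latent TGF-beta. Laminins are trimers of an alpha, a beta and a gamma chain and the main adhesive protein of basement membranes. Lama3 and Lamb3 are chains of laminins that anchor epithelial cells. Melanocytic cells are known for integrins of beta1 and alpha-v and for chains of the laminins of Lama4 and Lama5.

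Library totals ran from 19512882 to 46862053 counted reads. Grpr was at most 0.14 TPM in the control lines and at least 12.4 TPM in the receptor lines, apart from 1 library of each kind. The library labelled 1014-Ctrl mock replicate 2 held 69.8 TPM of Grpr and 45.3 TPM of the Y-linked Ddx3y, although 1014 is a female line. The library labelled 1181-Grpr GRP + RC replicate 2 held neither, although 1181 is a male line. Both were kept under their labels, and a count of members that changed without them is given both ways. Cdh1 was at most 0.08 TPM in 1057 and 1064, and 7.84 to 22.3 TPM in the other libraries of the 1181 lines, whose label also gives Cdh1dF/dF. All 7 melanocyte lineage markers had a median of at least 1 TPM in every line. Of the 16 markers of other cells given here, those with a median under 0.1 TPM in every line were Ptprc, Csf1r, Cd3e, Krt5, Krt14, Lum, Kdr and Tie1. Of the 5 fibroblast markers 2, Col1a1 and Col1a2, had a median of at least 1 TPM in 1064, where the list summed to 3.21 to 13.5 TPM, and 1, Pdgfra, did in 1057 and in 1014-Ctrl. Of the 4 endothelial markers 1, Cdh5, reached 1 TPM in 1057 and 1064, and in 1057 the sum of that list lay between 3.17 and 3.79 TPM in mock and between 4.51 and 4.68 TPM with GRP. None of the 3 keratinocyte markers reached 1 TPM. Of the 4 leukocyte markers 1, Cd68, reached a median of 1 TPM, in every line. In 1057 the sum of the leukocyte list lay between 3.01 and 4.12 TPM in mock and between 13.2 and 14.7 TPM with GRP, in 1014-Grpr it lay between 5.85 and 9.04 TPM and between 12.2 and 23.2 TPM, and the part of these markers in the results was not tested.

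Levels between genes are compared here as the authors' TPM, a transcript share corrected for gene length and library size. In mock libraries Itgb1, the common beta1 subunit, had the highest average TPM over the lines of any member. It was at 823 ± 16.6 TPM (mean ± SD, n = 3, as for all levels of this kind) in 1057 and 894 ± 133 in 1064. Its level in 1181-Ctrl, the lowest of the 6 lines, was 791 ± 90.1 TPM, and neighbouring lines in the order of Itgb1 levels overlapped, apart from 1014-Grpr and 1057. Itga4 was the most abundant alpha subunit on average over the lines, and it was 178 ± 11.4 TPM in 1057, below all other lines. Itga6 led the laminin-binding alpha subunits and stood highest in 1064 at 161 ± 33.8 TPM, against 42.6 ± 0.997 TPM in 1057 and 23.9 ± 3.2 TPM in 1181-Ctrl. Among the RGD-binding alpha subunits Itgav had the highest average over the lines, with 119.7 ± 6.34 TPM in 1064 and 76.2 ± 0.361 TPM in 1057, where Itga8 at 135 ± 9.32 TPM and Itga5 at 80.2 ± 2.16 TPM stood above it, while the 4 lines of 1014 and 1181 followed at lower levels, each overlapping the next. Itga1, a collagen receptor subunit, led its group at 23.8 ± 2.48 TPM in 1064 and 17.8 ± 1.69 TPM in 1057.

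Of the laminin chains Lamb2 had the highest average over the lines, with 259 ± 56.2 TPM in 1181-Ctrl and 67.5 ± 0.528 TPM in 1057, the lowest line. Lamc1, the gamma chain of most laminins, was 218 ± 58.0 TPM in 1064, 125 ± 2.49 TPM in 1057 and 64.3 ± 1.46 TPM in 1181-Ctrl, and in both ∆Ecad lines its average was above that of Lamb2. The alpha chain of highest level was Lama4, at 113 ± 23.1 TPM in 1064, 104 ± 0.726 TPM in 1057 and 78.7 ± 3.07 TPM in 1014-Grpr. Lama3 and Lamb3 were far lower and averaged 0.108 and 0.211 TPM over the mock libraries. Of the leukocyte alpha subunits Itgae was the highest, at an average of 0.193 TPM. In bulk libraries, fewer cells that express a gene and less of its RNA per cell cannot be told apart.

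**Figure D1:**
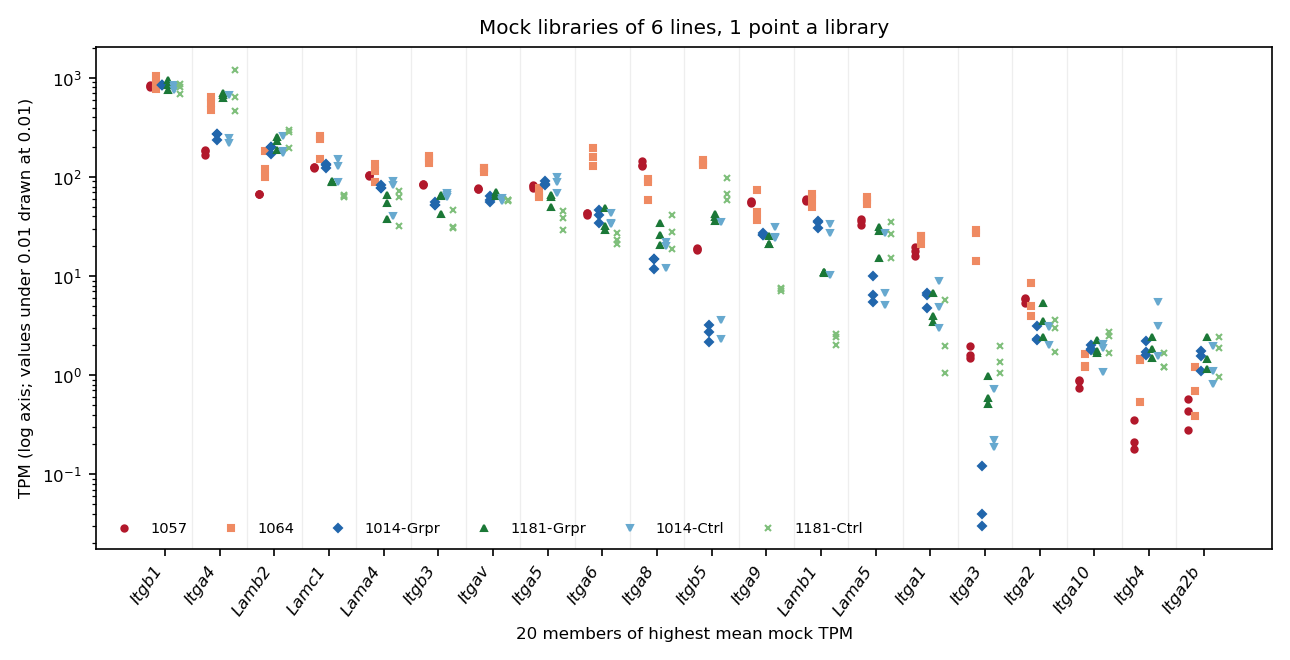
Levels of 20 members in the mock libraries of the 6 lines, in TPM on a log axis, with 1 point for each library and values under 0.01 drawn at 0.01. Itgb1 lay between 691 and 1039 TPM in all 18 libraries, while Itga3, Itgb5 and Lamb1 spread widely between lines, and in Itgb5 the single 1014-Ctrl point at 34.7 TPM is the library labelled mock replicate 2.

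GRP was then compared with mock in each line, to ask which members move with ligand in lines that do and do not hold its receptor. Values between treatments are CPM, read counts scaled to library size by TMM within the line. In 1057, 13 of 26 tested members rose and 5 fell, where 52.2% of all genes passed. In 1064, 7 of 26 rose and none fell, where 6.35% of all genes passed, and with the replicate number as a block, which pairs the libraries of that line, 14 rose and 4 fell, where 43.2% of all genes passed. In 1014-Grpr, 9 of 22 rose and none fell, where 28.6% of all genes passed, and with the block 11 rose and 3 fell, where 53.1% of all genes passed. The median log2 fold change of the tested members was 0.28 in 1057, 0.44 in 1064 and 0.16 in 1014-Grpr, against -0.01, -0.01 and -0.02 over all genes. In 1181-Grpr, 1181-Ctrl and 1014-Ctrl no member passed, where 0% of all genes passed. Passing here means a Benjamini-Hochberg adjusted p under 0.05 over all genes in edgeR's quasi-likelihood test. The spread between mock libraries of a line was taken as chi-square per degree of freedom, which is near 1 for counting noise alone. It was 2.70 to 9.85 in 1057, 86.4 to 105.9 in 1064 and 20.2 to 28.3 in 1014-Grpr. Smaller changes can therefore pass in 1057, and counts of passing members do not measure the strength of the response of a line. With an absolute log2 fold change above 1 also required, 6 members passed in 1057 (6.47% of all genes), 0 in 1064 (2.31%) and 2 in 1014-Grpr (4.01%). Among the 6 was Lamb3, whose mock counts in 1057 were all under the count minimum and whose value is a description. In 1064 the count depended on single libraries, falling from 7 to 1 without mock replicate 1 or mock replicate 2, to 2 without GRP replicate 1 or GRP replicate 2, to 3 without GRP replicate 3 and to 4 without mock replicate 3. All fits that left out a library, here and below, used no block. With the block and every library kept, these 7 members rose in 1064 too.

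**Figure D2:**
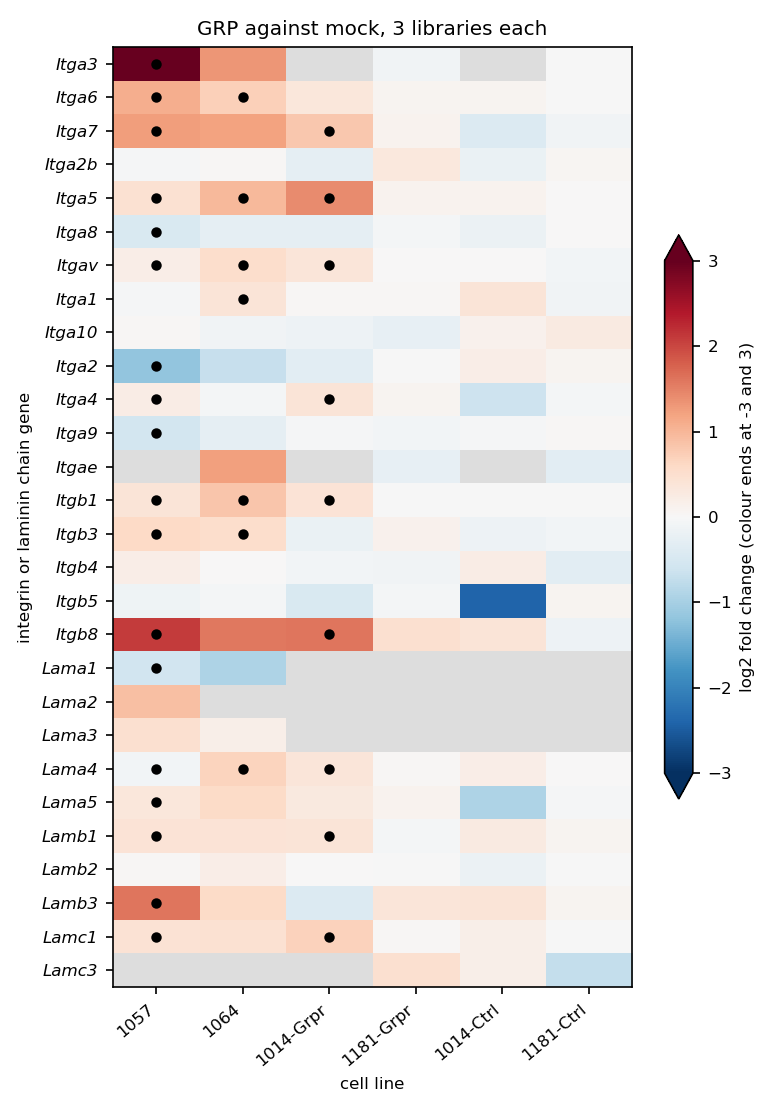
Log2 fold change of GRP against mock for the 28 members tested in any line (rows, by role) in the 6 lines (columns), from 3 libraries each. Black dots mark an adjusted p under 0.05, grey cells were not tested, and colours end at -3 and 3. Itga5, Itgb1, Itgav and Lama4 carry a dot in 1057, 1064 and 1014-Grpr, and no dot lies in the other 3 lines; the blue Itgb5 cell of 1014-Ctrl comes from the library labelled mock replicate 2.

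In the fits without the block, 4 members passed in all 3 of these lines, and 3 of them rose in each: Itga5, Itgb1 and Itgav. Lama4 rose in 1064 and 1014-Grpr and fell slightly in 1057. The share of all genes that passed in more than 1 line was not counted. Whether members were shared between lines more often than other genes was therefore not tested. Itga6 and Itgb3 rose in both ∆Ecad lines, and Itga7, Itga4, Itgb8, Lamb1 and Lamc1 rose in 1057 and 1014-Grpr. The remaining passes were in 1 line each: Itga3, Lamb3 and Lama5 rose and Itga2, Itga9, Itga8 and Lama1 fell in 1057, and Itga1 rose in 1064. In these fits no member fell in more than 1 line. With the block, Itga8, Itga9, Itga2 and Lama1 fell in 1064 too, Itga8, Itgb3 and Itgb5 fell in 1014-Grpr, Lamc1, Lama5, Lamb1, Lamb2, Itga3, Itga7 and Itgb8 rose in 1064, and Itga6 and Lama5 rose in 1014-Grpr. The 9 tested members that passed in no line without the block were Itga2b, Itga10, Itgae, Itgb4, Itgb5, Lama2, Lama3, Lamb2 and Lamc3.

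The sequence before the transcription start is shown for Itgb1, Itga5 and Itgav, which rose in 1057, 1064 and 1014-Grpr, and for Itga3, which rose by 3.18 on the log2 scale in 1057, so that the letters at the starts of co-moving members can be compared. RefSeq promoters of GRCm38.p6 were matched by symbol for 23 of the 36 members. Capitals mark letters of the searched motifs, read on both strands: AP-1 (TGANTCA), CRE (TGACGTCA), TEAD (GGAATG), Sp1 (GGGCGG) and the serum response element. Each run is the 250 bases before the start, 5′ to 3′ on the gene's strand, and the same window was searched in all promoters.
Itgb1, chr8:128685404-128685653, + strand: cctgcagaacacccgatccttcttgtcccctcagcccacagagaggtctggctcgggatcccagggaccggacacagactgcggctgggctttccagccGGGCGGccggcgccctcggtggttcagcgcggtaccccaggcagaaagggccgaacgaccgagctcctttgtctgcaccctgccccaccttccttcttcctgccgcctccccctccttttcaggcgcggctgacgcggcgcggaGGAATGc
Itga5, chr15:103366792-103367041, - strand: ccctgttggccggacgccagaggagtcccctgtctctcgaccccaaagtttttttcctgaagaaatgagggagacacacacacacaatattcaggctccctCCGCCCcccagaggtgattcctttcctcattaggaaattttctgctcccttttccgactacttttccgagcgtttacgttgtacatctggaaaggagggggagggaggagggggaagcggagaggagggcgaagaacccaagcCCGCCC
Itgav, chr2:83724147-83724396, + strand: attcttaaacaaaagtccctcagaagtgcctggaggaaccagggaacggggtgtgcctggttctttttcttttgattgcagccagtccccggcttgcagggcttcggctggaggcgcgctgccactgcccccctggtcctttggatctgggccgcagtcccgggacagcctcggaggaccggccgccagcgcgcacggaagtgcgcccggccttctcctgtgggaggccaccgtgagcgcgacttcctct
Itga3, first start, chr11:95076715-95076964, - strand: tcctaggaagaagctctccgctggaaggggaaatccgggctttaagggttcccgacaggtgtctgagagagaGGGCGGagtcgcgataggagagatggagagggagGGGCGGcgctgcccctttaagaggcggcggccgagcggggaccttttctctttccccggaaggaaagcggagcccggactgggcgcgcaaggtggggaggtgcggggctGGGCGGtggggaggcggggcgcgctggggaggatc
Itga3, second start, chr11:95069199-95069448, - strand: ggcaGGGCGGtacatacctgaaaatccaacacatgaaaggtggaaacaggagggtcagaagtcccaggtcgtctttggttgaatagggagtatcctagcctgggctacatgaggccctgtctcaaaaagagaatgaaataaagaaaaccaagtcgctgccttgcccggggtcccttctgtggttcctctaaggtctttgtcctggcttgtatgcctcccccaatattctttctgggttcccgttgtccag

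The TEAD letters of Itgb1 lie 7 bases before the start and its Sp1 letters 151 bases before it. Itga5 holds the Sp1 letters on the other strand, 149 and 6 bases before its start. Itga3 holds Sp1 letters 178, 144 and 35 bases before its first start and 246 bases before its second. None of the motifs occurs in the Itgav window. TEAD letters were in 3 of the 23 matched members (Itga10, Itgb1 and Lamb3) and in 12.6% of 32851 promoters. Sp1 letters were in 8 of 23 members and 32.7% of promoters. AP-1 letters were in 1 member, Itgax, and in 6.75% of promoters, the serum response element in 2 members, Itgb6 and Lama2, and 1.47% of promoters, and CRE letters in no member and 1.55% of promoters. None of these matches overlapped another in the 5 printed runs. A match is one of letters only.

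Among the laminin chains of low level, Lamb3 had 4, 4 and 6 counts in the 1057 mock libraries and 11, 17 and 13 with GRP. Its mock counts there were all under the count minimum, so it entered the fit of 1057 only through the treated libraries in which it was higher, and its log2 fold change of 1.60 ± 0.36 (adjusted p = 0.00119, edgeR) and its other values against mock in 1057 are descriptions. Without Lamb3, 17 members passed in 1057. Lamb3 had a log2 fold change of 0.57 ± 0.76 in 1064 and -0.41 ± 0.35 in 1014-Grpr, neither of which passed. Lama3 had 9, 9 and 9 counts in the 1057 mock libraries and 11, 13 and 12 with GRP, and did not pass (log2 fold change 0.48 ± 0.29).

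The chains of the more abundant laminins changed by smaller factors. Lamc1 in 1057 was at 307, 311 and 305 CPM in mock, 413, 409 and 419 with GRP, 308, 320.4 and 314 with RC and 341, 339 and 335 with GRP + RC. In 1014-Grpr it was at 317, 307 and 275 CPM in mock, 455, 539 and 452 with GRP, 321, 319 and 275 with RC and 339.6, 347 and 302 with GRP + RC. These are rises of 0.43 and 0.69 on the log2 scale, and GRP libraries lay above every mock library in both lines. In 1064 Lamc1 had a log2 fold change of 0.46 ± 0.24, with an adjusted p of 0.305 in edgeR and 0.000427 with the replicate block. Lamb1, a beta chain of early basement membranes, was at 173, 173 and 173 CPM in mock, 229, 228 and 229 with GRP, 185, 175 and 177 with RC and 191, 198 and 190.4 with GRP + RC in 1057. Its 1014-Grpr values were 100.2, 96.7 and 81.9 CPM in mock, 126, 123 and 114 with GRP, 100.1, 94.8 and 81.8 with RC and 108, 107 and 97.1 with GRP + RC. The log2 fold changes were 0.40 ± 0.03 and 0.38 ± 0.09, with no overlap of GRP and mock in either line. Lamb2, the most abundant beta chain, did not pass in any line (log2 fold change 0.04 ± 0.04 in 1057, 0.20 ± 0.28 in 1064 and 0.01 ± 0.12 in 1014-Grpr), although it passed in 1064 with the block (adjusted p = 0.00247, edgeR).

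Lama4 differed in direction between the lines. In 1057 it was at 377, 371 and 369 CPM in mock, 362, 342 and 348 with GRP, 350.5, 333 and 336 with RC and 338, 340.2 and 336 with GRP + RC, so with GRP it fell by 0.09 on the log2 scale (adjusted p = 0.0169, edgeR), a call lost without GRP replicate 2, GRP replicate 3 or mock replicate 1 (adjusted p 0.0605 to 0.102). In 1064 it was at 447, 311 and 421 CPM in mock, 688, 539 and 651 with GRP, 507, 457 and 363 with RC and 537, 446 and 439 with GRP + RC, a rise of 0.67 ± 0.17 that did not pass without any 1 of the 6 libraries (adjusted p 0.0606 to 0.164). The 1014-Grpr libraries held 261, 262 and 270.4 CPM in mock, 323, 335 and 355 with GRP, 257, 265 and 271 with RC and 273, 291 and 307 with GRP + RC, a rise of 0.35 ± 0.06. No GRP library overlapped mock in any of the 3 lines, and in 1057 all 3 lay below it. Lama5, the alpha chain of broadly distributed laminins, rose in 1057 by 0.34 ± 0.05, and Lama1, an embryonic chain, fell there by 0.56 from 9.10, 9.74 and 9.64 CPM to 6.08, 6.57 and 6.59 CPM.

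Among the laminin-binding alpha subunits, Itga6 rose in both ∆Ecad lines. In 1057 it was at 118, 111 and 115 CPM in mock, 244, 241 and 249 with GRP, 131, 129 and 126 with RC and 167, 161 and 158 with GRP + RC, a log2 fold change of 1.09 ± 0.03 (adjusted p = 3.44e-15, edgeR). In 1064 it was at 486, 337 and 429.7 CPM in mock, 774, 671 and 608 with GRP, 553, 473 and 399.9 with RC and 563, 461 and 450.3 with GRP + RC, a log2 fold change of 0.71 ± 0.17 (adjusted p = 0.0380, edgeR). All GRP libraries exceeded all mock libraries in both lines, while the spread between 1064 replicates was wider and the call there was lost without any 1 of the 6 libraries (adjusted p 0.0512 to 0.134). Those fits used no block, and with the block and every library kept Itga6 rose in 1064 too. In 1014-Grpr the log2 fold change of Itga6 was 0.34 ± 0.16, with an adjusted p of 0.129 in edgeR and 2.41e-06 with the block.

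Itga3, the alpha3 subunit of a laminin receptor, rose several fold in 1057. It was at 3.41, 2.72 and 2.48 CPM in mock, 25.3, 25.0 and 28.1 with GRP, 4.28, 4.10 and 3.84 with RC and 7.72, 8.07 and 9.65 with GRP + RC, a log2 fold change of 3.18 ± 0.10 (adjusted p = 1.10e-14, edgeR). In 1064, where Itga3 was already higher at rest, it was at 42.6, 23.6 and 50.1 CPM in mock, 144, 64.0 and 83.0 with GRP, 51.9, 30.3 and 51.0 with RC and 58.7, 32.0 and 52.8 with GRP + RC. This did not pass (log2 fold change 1.32 ± 0.38, adjusted p = 0.0651, edgeR), but it did with the block (adjusted p = 0.000145). In 1014-Grpr Itga3 stayed under the count minimum, with 2, 6 and 1 counts in mock and 9, 13 and 13 with GRP. GRP and mock libraries of Itga3 did not overlap in 1057 or 1064. Itga7, best known from muscle, was low: 0.574, 0.250 and 0.496 CPM in mock, 0.972, 1.05 and 1.14 with GRP, 0.570, 0.492 and 0.661 with RC and 0.806, 0.623 and 0.965 with GRP + RC in 1057. In 1014-Grpr it was at 1.80, 1.63 and 2.43 CPM in mock, 3.23, 3.82 and 3.08 with GRP, 2.82, 1.80 and 1.57 with RC and 2.27, 1.75 and 2.54 with GRP + RC. The log2 fold changes were 1.25 ± 0.27 and 0.80 ± 0.24, and GRP and mock did not overlap in either line. The Itga7 call in 1014-Grpr was lost without GRP replicate 2, mock replicate 1 or mock replicate 2 (adjusted p 0.0746 to 0.0972).

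Of the RGD-binding alpha subunits, Itga5, the fibronectin receptor subunit, rose most. In 1057 it was at 109, 108 and 102 CPM in mock, 148, 145 and 142 with GRP, 118, 114 and 112 with RC and 120.1, 118 and 116 with GRP + RC. In 1064 it was at 80.0, 80.6 and 104 CPM in mock, 165, 197 and 156 with GRP, 101, 108 and 102 with RC and 105, 114 and 109.5 with GRP + RC. In 1014-Grpr it was at 115, 104 and 104 CPM in mock, 251, 313 and 303 with GRP, 115, 114 and 109 with RC and 142, 146 and 135 with GRP + RC. The log2 fold change was 0.45 ± 0.03 in 1057, 0.97 ± 0.12 in 1064 and 1.43 ± 0.08 in 1014-Grpr (adjusted p = 1.84e-09, 0.00414 and 4.78e-07, edgeR), and every GRP library exceeded every mock library of its line. Itgav, the vitronectin receptor subunit, rose by 0.20 ± 0.04, 0.52 ± 0.13 and 0.37 ± 0.11 in the same order. Its 1057 values were 248, 242 and 242 CPM in mock, 296, 269 and 278 with GRP, 223, 225 and 224 with RC and 241, 231 and 251 with GRP + RC. In 1064 they were 363, 382 and 366 CPM in mock, 514, 600.3 and 475 with GRP, 431, 468 and 379 with RC and 459, 471 and 376 with GRP + RC. In 1014-Grpr they were 168, 194 and 173 CPM in mock, 219, 257 and 217 with GRP, 166, 191 and 167 with RC and 170.2, 212 and 165 with GRP + RC. Here too GRP stood above mock in all 3 lines. The Itgav call in 1064 was lost without GRP replicate 1, GRP replicate 2, mock replicate 1, mock replicate 2 or mock replicate 3 (adjusted p 0.0698 to 0.128), and in 1014-Grpr without GRP replicate 2, mock replicate 1 or mock replicate 3 (adjusted p 0.0580 to 0.0788). Itga8, a receptor subunit for nephronectin, fell in 1057 by 0.46 from 288, 285 and 316 CPM to 216, 215 and 214 CPM.

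Itgb1, the member of highest mock TPM on average over the lines, rose by small factors in all 3 lines. In 1057 it was at 1024, 972 and 1003 CPM in mock, 1289, 1299 and 1306 with GRP, 1031, 1035 and 1036 with RC and 1124, 1169 and 1112 with GRP + RC. In 1064 it was at 868, 1019 and 1283 CPM in mock, 1972, 1990.1 and 1699 with GRP, 1116, 1345 and 1186 with RC and 1228, 1364 and 1268 with GRP + RC. In 1014-Grpr it was at 976, 980.0 and 939 CPM in mock, 1195, 1291 and 1345 with GRP, 946, 999 and 954 with RC and 1034, 1074 and 1063 with GRP + RC. These are log2 fold changes of 0.38 ± 0.03, 0.84 ± 0.15 and 0.40 ± 0.06 (adjusted p = 2.53e-09, 0.0135 and 0.000396, edgeR), and no GRP library overlapped mock. The Itgb1 call in 1064 was lost without mock replicate 1 or mock replicate 2 (adjusted p 0.0580 to 0.0637). Itgb8 rose by more from a far lower level. Its counts were 31, 39 and 36 in mock and 137, 149 and 144 with GRP in 1057, and on the CPM scale it was at 0.847, 1.08 and 0.992 CPM in mock, 4.30, 4.0 and 4.20 with GRP, 1.57, 1.67 and 1.65 with RC and 3.17, 3.26 and 3.02 with GRP + RC. In 1014-Grpr it was at 2.49, 4.02 and 3.15 CPM in mock, 6.42, 12 and 10.9 with GRP, 3.23, 3.84 and 4.20 with RC and 3.34, 6.06 and 4.28 with GRP + RC. The log2 fold changes were 2.09 ± 0.13 and 1.60 ± 0.27, with no overlap. In 1064, Itgb8 varied more between replicates (5.10, 13.1 and 13.8 CPM in mock and 9.92, 65.4 and 20.8 CPM with GRP) and did not pass (adjusted p = 0.352 in edgeR, 0.0103 with the block).

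Itgb3, the alpha-v partner linked to invasive growth of melanoma, rose in the ∆Ecad lines. It was at 151, 144 and 147 CPM in mock, 236, 215 and 222 with GRP, 179, 171 and 176 with RC and 186, 190.4 and 179 with GRP + RC in 1057. In 1064 it was at 253, 234 and 290.4 CPM in mock, 349, 409 and 361 with GRP, 290.5, 230.5 and 293 with RC and 299, 244 and 291 with GRP + RC. GRP and mock did not overlap in either line, and the 1064 call was lost without GRP replicate 1, GRP replicate 2, GRP replicate 3, mock replicate 1 or mock replicate 2 (adjusted p 0.0773 to 0.165). The log2 fold changes were 0.61 ± 0.04 and 0.53 ± 0.13, whereas 1014-Grpr had -0.21 ± 0.11 (adjusted p = 0.172, edgeR, and 0.000578 with the block). Itgb5 passed in none of these lines without the block, and in 1014-Grpr it had an adjusted p of 0.0453 with it (log2 fold change -0.45 ± 0.27).

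The alpha4 and alpha9 subunits moved in opposite directions in 1057. Itga4 was at 702, 752 and 769 CPM in mock, 917, 813 and 868 with GRP, 779.8, 820.2 and 836 with RC and 841, 871 and 936 with GRP + RC, a rise of 0.22 ± 0.05. In 1014-Grpr it was at 929, 1067 and 1033 CPM in mock, 1246, 1358 and 1337 with GRP, 1014, 1147 and 1070.2 with RC and 1083, 1209 and 1144 with GRP + RC, a rise of 0.38 ± 0.08. GRP libraries exceeded mock in both lines, and in 1057 all RC and GRP + RC libraries lay above mock as well. Itga9 fell in 1057 by 0.55, from 128, 129.6 and 126 CPM to 86.0, 91.5 and 83.9 CPM, and had log2 fold changes of -0.28 ± 0.27 in 1064 and -0.04 ± 0.07 in 1014-Grpr, which did not pass, although the first did with the block (adjusted p = 0.0388, edgeR). Of the collagen-binding alpha subunits, Itga2 fell in 1057 by 1.19, from 7.67, 6.61 and 7.30 CPM to 4.08, 2.60 and 2.86 CPM. Itga1 rose in 1064 by 0.38 ± 0.10 (adjusted p = 0.0476, edgeR), a call lost without GRP replicate 1, GRP replicate 2, GRP replicate 3, mock replicate 1 or mock replicate 2 (adjusted p 0.0803 to 0.163), and had a log2 fold change of -0.04 ± 0.06 in 1057. Itga10, also of that group, did not pass with GRP, and 33.5% of its exon bases overlap another gene of the same strand (Gm42957), so its counts are uncertain. Itga1 shares 3.68% of its exon bases with Gm49395 of the same strand, and Itgav 5.90% and Itga4 8.0% with antisense genes.

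**Figure D3:**
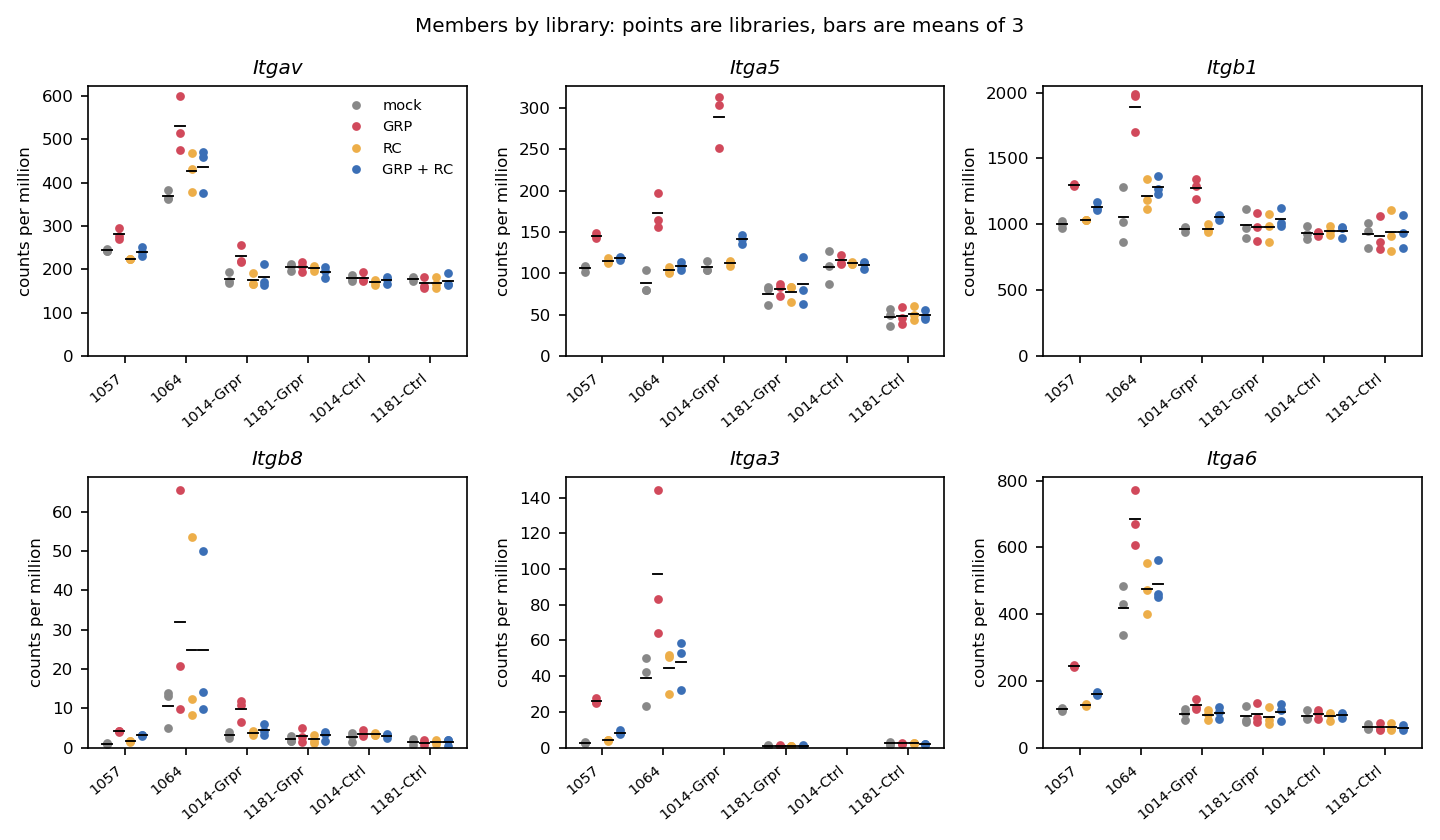
CPM of 6 members in all 6 lines, with 1 point for each library, colours for the 4 treatments and a short bar for the mean of 3. The GRP points stand above mock in 1057, 1064 and 1014-Grpr for Itgav, Itga5 and Itgb1. The treatments lie together in 1181-Grpr and in both control lines, apart from points of the 2 doubtful libraries. The Itga5 point of 1181-Grpr at 119.6 CPM is the library labelled GRP + RC replicate 2, which held no Grpr. Itga3 in the 1014 lines was under the count minimum and is not drawn.

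GRP was compared with mock in 1181-Grpr in the same way, and no member passed in edgeR. The members' log2 fold changes ran from -0.26 (Itgae) to 0.49 (Itgb8), none had an unadjusted p under 0.05, and DESeq2 called none. Itga5 was 61.6, 83.4 and 80.8 CPM in mock and 72.4, 83.8 and 87.4 CPM with GRP, a log2 fold change of 0.11 ± 0.21. GRP and mock overlapped for Itga5. Grpr itself was 12.4 to 123 TPM in 1181-Grpr, apart from the library without it, against at least 155 TPM in 1014-Grpr, 214 TPM in 1057 and 539 TPM in 1064, and the part of this in the result was not tested. In 1181-Ctrl the log2 fold changes ran from -0.72 to 0.28, with no unadjusted p under 0.05 and no call by DESeq2. In 1014-Ctrl they ran from -2.41 (Itgb5) to 0.39 (Itgb8), 1 member had an unadjusted p under 0.05, and DESeq2 called none. The Itgb5 value came from mock replicate 2, with 2.21, 33.6 and 3.37 CPM in mock and 2.17, 2.11 and 3.04 CPM with GRP, and without that library the log2 fold change was -0.19. No member passed without that library either.

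The difference of the GRP effect between 2 lines was tested directly. Between 1014-Grpr and 1014-Ctrl it passed for 4 of 24 members, where 13.4% of all genes passed, and all 4 were higher with the receptor. They were Itga5 (1.34 ± 0.14 on the log2 scale), Itga7 (1.22 ± 0.37) and Itgb1 (0.42 ± 0.09), and Itga3 (2.85 ± 0.85), whose value is a description. Itga3 was under the count minimum in each of the 1014 lines and entered the fit of both through 4 libraries, of which 2 were 1014-Grpr libraries with GRP and 1 was 1014-Ctrl mock replicate 2, so without it 3 members passed. Without 1014-Ctrl mock replicate 2, 6 members passed, where 16.8% of all genes passed. Itga3 and Itga7 no longer passed (adjusted p = 0.0860 and 0.0780, edgeR), and Itgb8, Lamc1, Lama4 and Lamb1 did. The Itga3 counts behind this were 2, 6 and 1 in mock and 9, 13 and 13 with GRP in 1014-Grpr, against 8, 27 and 9 and 6, 6 and 11 in 1014-Ctrl. The Itga3 call was lost without 1014-Ctrl GRP replicate 1, 1014-Ctrl GRP replicate 2, 1014-Ctrl mock replicate 2, 1014-Grpr GRP replicate 2, 1014-Grpr mock replicate 1 or 1014-Grpr mock replicate 3 (adjusted p 0.0640 to 0.0860). The Itga7 call was lost without 1014-Ctrl GRP replicate 1, 1014-Ctrl GRP replicate 2, 1014-Ctrl mock replicate 2, 1014-Grpr GRP replicate 2, 1014-Grpr mock replicate 1 or 1014-Grpr mock replicate 2 (adjusted p 0.0530 to 0.0919). The count was 2 without 1014-Ctrl GRP replicate 1, 1014-Ctrl GRP replicate 2, 1014-Grpr GRP replicate 2 or 1014-Grpr mock replicate 1. Between 1181-Grpr and 1181-Ctrl no member of 25 passed, where 0% of all genes passed, no unadjusted p was under 0.05 and DESeq2 called none.

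Between the receptor lines, 1057 and 1014-Grpr differed for 7 of 26 members, where 15.1% of all genes passed, and for 6 without Lamb3. The GRP effect was larger in 1057 for Lamb3 by 2.0 ± 0.46, Itgb3 by 0.80 ± 0.12 and Itga6 by 0.74 ± 0.17. It was lower in 1057 than in 1014-Grpr for Itga5 (-0.99 ± 0.09), Itga2 (-0.88 ± 0.24), Itga9 (-0.53 ± 0.08) and Lama4 (-0.46 ± 0.07). The Itga2 call was lost without 1014-Grpr GRP replicate 2 or 1057 GRP replicate 2 (adjusted p 0.0501 to 0.0572). With a difference above 1 also required 1 passed, Lamb3, whose value is a description, and 2.83% of all genes. Between 1057 and 1064, 3 of 27 members passed, where 1.30% of all genes passed: Itga3 (1.86 ± 0.43) was higher in 1057, and Lama4 (-0.76 ± 0.18) and Itga5 (-0.51 ± 0.12) were lower. Itga3 alone also differed by more than 1, as did 0.460% of all genes. The count of 3 fell to 0 without any 1 of the 6 libraries of 1057, to 1 without any of the 3 GRP libraries of 1064 or its mock replicates 1 and 2, and was 4 without 1064 mock replicate 3; the adjusted p of the lost calls ran up to 0.115. Between 1064 and 1014-Grpr no member of 26 passed in edgeR, where 0.226% of all genes passed; 3 had an unadjusted p under 0.05 and DESeq2 called 1. Without 1064 mock replicate 3, 2 members passed. With the replicate block, which pairs the libraries within each of these lines, 7 passed there, where 14.1% of all genes passed. Among the 7 were Itgb3 (log2 difference 0.77, adjusted p = 0.000183, edgeR) and Itga4 (-0.40, adjusted p = 0.00189).

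RC was added to GRP to ask whether the antagonist takes the change back, and GRP + RC was compared with GRP. This comparison shares its GRP libraries with the one above, so the values are given side by side. In 1057, 9 of 26 members were lower and 4 were higher with GRP + RC than with GRP, where 24.5% of all genes passed. The largest were Itga3 (-1.63 ± 0.09), Itga2 (0.73 ± 0.13), Itga6 (-0.59 ± 0.03), Itgb8 (-0.40 ± 0.10) and Itga5 (-0.30 ± 0.03), of which Itga2 was higher and the other 4 lower. Against mock, GRP + RC in 1057 passed for 18 of 26 members, where 44.0% of all genes passed, and for 17 without Lamb3. A log2 change above 1 was also reached by 1 member against GRP (1.02% of all genes) and 3 against mock (3.49%), the 3 including Lamb3. Itga3 stood 1.55 ± 0.11 above mock on the log2 scale against 3.18 ± 0.10 with GRP alone, and Itga6 0.50 ± 0.03 against 1.09 ± 0.03. Lamb3 did not pass between GRP + RC and GRP (1.94 ± 0.35 against mock with GRP + RC, 1.60 ± 0.36 with GRP).

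In 1014-Grpr, 5 of 22 members were lower with GRP + RC than with GRP and none higher, where 11.6% of all genes passed. They were Itgb8 (-1.10 ± 0.26), Itga5 (-1.03 ± 0.08), Lamc1 (-0.55 ± 0.09), Itgb1 (-0.27 ± 0.06) and Lama4 (-0.22 ± 0.06). The first 2 of these also changed by more than 1, as did 1.76% of all genes. The Itgb8 call was lost without GRP replicate 2, GRP replicate 3, GRP + RC replicate 1 or GRP + RC replicate 3 (adjusted p 0.0576 to 0.0785), that of Lama4 without GRP replicate 2, GRP replicate 3, GRP + RC replicate 1 or GRP + RC replicate 2 (adjusted p 0.0774 to 0.141) and that of Itgb1 without GRP + RC replicate 1 (adjusted p 0.0545). The count was 2 without GRP + RC replicate 1 and 3 without GRP replicate 2 or 3, and with the replicate block 11 were lower and 2 higher, where 38.3% of all genes passed. Against mock, 1 member passed with GRP + RC, where 0.953% of all genes passed: Itga5, with 0.39 ± 0.08 against 1.43 ± 0.08 for GRP, and no member also changed by more than 1, where 0.186% of all genes did. That call was lost without any 1 of the 6 libraries (adjusted p 0.0701 to 0.219), and with the block 7 members passed, all higher, where 17.2% of all genes passed. In 1064 no member passed between GRP + RC and GRP in edgeR, where 0.0288% of all genes passed; 7 had an unadjusted p under 0.05 and DESeq2 called 2. With the block, which pairs the libraries of 1064, 11 were lower and 4 higher, where 21.1% of all genes passed, among them Itga5 (-0.65, adjusted p = 0.00281, edgeR) and Itga3 (-1.0, adjusted p = 0.00252). Against mock, GRP + RC passed for no member of 1064 in edgeR, with or without the block, where 0% of all genes passed and 2 members had an unadjusted p under 0.05.

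**Figure D4:**
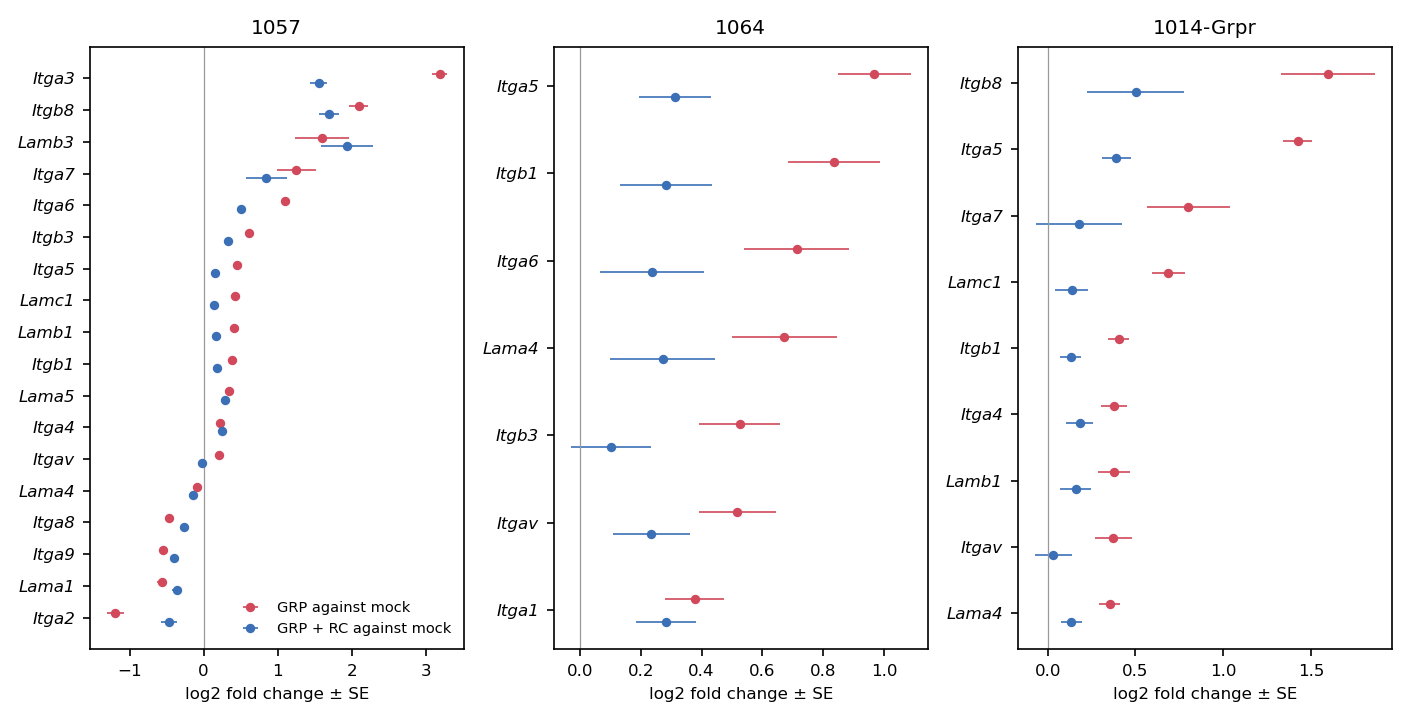
Log2 fold change against mock with its SE for the members that passed with GRP in 1057, 1064 and 1014-Grpr, with GRP alone (red) and with GRP + RC (blue), which share the same mock libraries. Itga5 in 1064 stands at 0.97 with GRP and 0.31 with GRP + RC, Itga5 in 1014-Grpr at 1.43 and 0.39, and Lamb3 in 1057 at 1.60 and 1.94.

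Given alone, RC changed members in 1057, and a difference between lines was not tested for RC. The spread between replicates was smaller in 1057 than in the other lines, so smaller changes can pass there. In 1057, 8 of 26 members were higher and 4 lower with RC than in mock, where 24.1% of all genes passed, 11 in all without Lamb3. The largest were Lamb3 (1.24 ± 0.38), Itgb8 (0.74 ± 0.15), Itga3 (0.51 ± 0.13), Itgb3 (0.25 ± 0.04) and Itga9 (-0.25 ± 0.03). Lamb3 alone, whose value is a description, also changed by more than 1, as did 0.882% of all genes. Itgb8 was 0.847, 1.08 and 0.992 CPM in mock and 1.57, 1.67 and 1.65 CPM with RC, with no overlap. Itgb3 was 151, 144 and 147 CPM in mock and 179, 171 and 176 CPM with RC, also with no overlap. Against the same mock libraries, GRP gave 1.60, 2.09, 3.18, 0.61 and -0.55 for these 5 members. The Lamb3 call for RC was lost without mock replicate 1, mock replicate 2, RC replicate 1 or RC replicate 3 (adjusted p 0.0649 to 0.0931). In the other 5 lines no member passed for RC against mock in edgeR, where 0% of all genes passed, 1 member each in 1064 and 1014-Ctrl had an unadjusted p under 0.05, and DESeq2 called none.

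The lines were also compared at rest. The mock libraries of the ∆Ecad lines 1057 and 1064, averaged, were compared with those of the control lines 1181-Ctrl and 1014-Ctrl, averaged. Of 27 members, 17 were higher and 6 lower in the ∆Ecad lines, where 63.7% of all genes passed. Of these 23, Lama1, Lama3 and Lamc3 were under 10 counts in every library of one side, which leaves 20. The median log2 fold change of the members was 1.02, against -0.05 over all genes. Without the 2 doubtful libraries 18 members were higher and 5 lower, where 64% of all genes passed. Itgb5 then passed as higher and Itgae no longer passed. By their labels the pairs of lines differ in Cre and the added plasmid, 1014 also in Cdkn2a and Cdh1 and 1181 also in sex, and these cannot be told apart here.

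Lama1 and Lamc3, the members furthest apart, were each nearly absent on one side. Lama1 had 333, 351 and 350 counts in 1057 and 29, 17 and 25 in 1064, against 1, 0 and 0 in 1181-Ctrl and 0, 4 and 0 in 1014-Ctrl, where the 4 are in the library labelled mock replicate 2. Lamc3, a gamma chain of nerve and skin, had no count in any mock library of 1057 or 1064, against 15, 9 and 1 in 1181-Ctrl and 1, 9 and 10 in 1014-Ctrl, so no fold is given. Itga3 was higher by 3.39 ± 0.33 (adjusted p = 4.54e-07, edgeR), although 1057 itself, at 1.97, 1.61 and 1.48 TPM, overlapped 1181-Ctrl at 1.37, 1.96 and 1.05 TPM and 1064 stood above both at 27.2, 14.3 and 29.0 TPM. Lamb1 was higher by 3.28 ± 0.22 (adjusted p = 7.68e-09, edgeR), with 57.5, 58.8 and 59.5 TPM in 1057, 66.9, 50.2 and 60.3 TPM in 1064, 2.01, 2.43 and 2.58 TPM in 1181-Ctrl and 33.5, 10.3 and 27.2 TPM in 1014-Ctrl. The 10.3 TPM of 1014-Ctrl is the library labelled mock replicate 2. No library of a ∆Ecad line overlapped a control library for Lamb1. Lama3 had 9, 9 and 9 counts in 1057 and 15, 28 and 72 in 1064, against 2, 2 and 2 in 1181-Ctrl and 3, 5 and 2 in 1014-Ctrl, and since it reached the count minimum in 1064 alone of these lines, no fold is given.

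**Figure D5:**
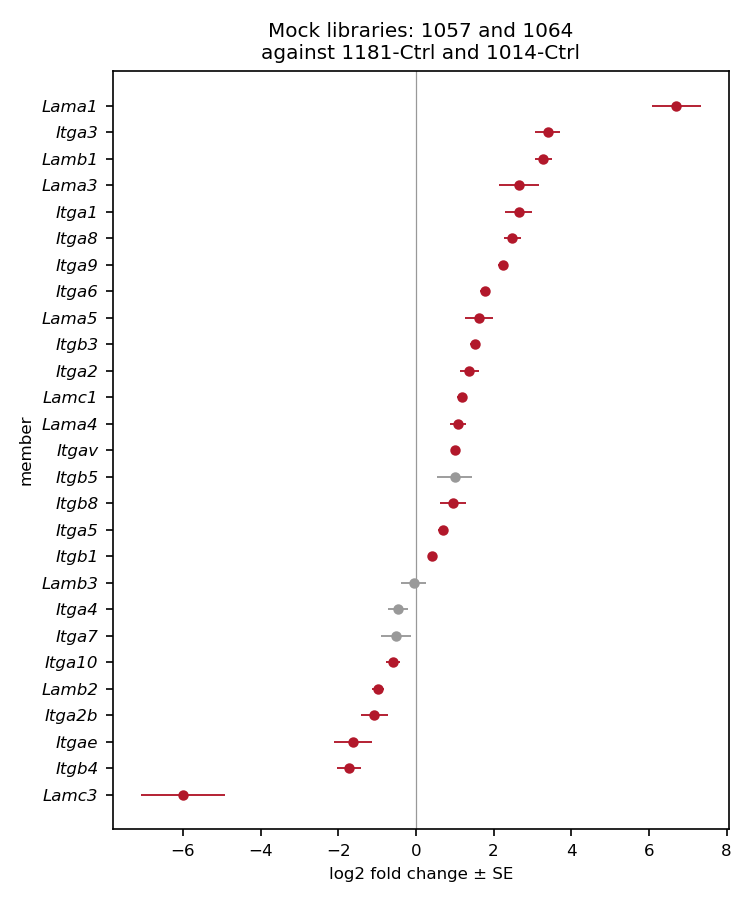
Log2 fold change with its SE of the 27 members in the mock libraries, for the mean of 1057 and 1064 against the mean of 1181-Ctrl and 1014-Ctrl. Red points have an adjusted p under 0.05. The 17 red points to the right of 0 are higher in the ∆Ecad lines and the 6 to the left are lower; Lamc3 had no counts in the ∆Ecad lines, so its place is fitted and no measured fold.

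Lines 1057 and 1064 also differed from each other. Of 27 members, 15 were lower and 2 higher in 1057 than in 1064, where 49.2% of all genes passed. Of these 17, Itgae, Lama3 and Lamb3 were under 10 counts in every mock library of 1057, which leaves 14. The largest were Itga3 (-3.78 ± 0.45), Itgb8 (-3.47 ± 0.50), Lama1 (3.41 ± 0.59), Itga7 (-3.39 ± 0.58) and Itgb5 (-2.86 ± 0.67), of which Lama1 was the one higher in 1057. By more than 1 on the log2 scale 11 members differed, among them Itgae, Lama3 and Lamb3, and 25.2% of all genes. Itgb5 was 18.8, 18.4 and 19.2 TPM in 1057 and 138, 149 and 131 TPM in 1064. The control lines 1181-Ctrl and 1014-Ctrl differed for 9 of 27 members, 7 lower and 2 higher in 1181-Ctrl, where 34.2% of all genes passed. Lamb1 (-3.43 ± 0.31), Itgb5 (2.38 ± 0.66), Itga9 (-1.96 ± 0.19), Itga3 (1.89 ± 0.48) and Itgb4 (-1.40 ± 0.42), the partner of alpha6 in hemidesmosomes, were furthest apart. Itgb4 was 1.68, 1.22 and 1.21 TPM in 1181-Ctrl and 5.42, 1.55 and 3.16 TPM in 1014-Ctrl, where only the value of mock replicate 2, 1.55 TPM, lay among those of 1181-Ctrl, and its call was lost without 1014-Ctrl replicate 1, 1181-Ctrl replicate 2 or 1181-Ctrl replicate 3 (adjusted p 0.0611 to 0.138). Without the 2 doubtful libraries the Itgb4 difference was -1.75 (adjusted p = 0.000934, edgeR). Without 1014-Ctrl mock replicate 2, 15 members passed, where 49.9% of all genes passed, and the difference of Itgb5 was 4.57.

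Receptor without added ligand was read from the mock libraries of the receptor and control versions. In 1181, 6 of 27 members were higher with Grpr and none lower, where 9.66% of all genes passed. The largest were Lamb1 (2.28 ± 0.30), Itga9 (1.68 ± 0.19), Itgb3 (0.74 ± 0.17), Itga5 (0.72 ± 0.18) and Itga6 (0.67 ± 0.19). The first 2 of these also differed by more than 1, as did 6.29% of all genes. Lamb1 was 11, 11 and 10.8 TPM in 1181-Grpr and 2.01, 2.43 and 2.58 TPM in 1181-Ctrl. Itga9 was 21.2, 25.1 and 21.1 TPM and 7.59, 7.31 and 6.99 TPM. Neither Lamb1 nor Itga9 overlapped between the versions. The call was lost for Itgb3 without 1181-Ctrl replicate 2, 1181-Grpr replicate 2 or 1181-Grpr replicate 3 (adjusted p 0.0588 to 0.0694), for Itga5 without 1181-Ctrl replicate 1, 1181-Grpr replicate 2 or 1181-Grpr replicate 3 (adjusted p 0.0544 to 0.0724) and for Itga6 without 1181-Ctrl replicate 1, 1181-Ctrl replicate 2 or 1181-Grpr replicate 1 (adjusted p 0.0813 to 0.193). The count was 3 without 1181-Ctrl mock replicate 2 or 1181-Grpr mock replicate 3. The fit of mock libraries also holds the library labelled 1014-Ctrl mock replicate 2. Without the 2 doubtful libraries 7 members were higher in 1181-Grpr and 1, Itgb5, was lower, where 16.5% of all genes passed. In 1014 no member of 27 passed in edgeR, where 0.0836% of all genes passed; 2 had an unadjusted p under 0.05 and DESeq2 called 2. It was 2 without 1014-Ctrl mock replicate 1 or 3 and 0 without its mock replicate 2. Each version is a selected culture of 1 line, so receptor and culture cannot be told apart in this comparison.

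Genes that work beside the members were followed as 3 lists. Of 28 cytoplasmic adhesion proteins, which link integrins to actin, 11 rose and 8 fell of 25 tested in 1057, 5 rose and 1 fell of 26 in 1064, and 13 rose and 3 fell of 25 in 1014-Grpr. Those are 76%, 23.1% and 64% of the list, where 52.2%, 6.35% and 28.6% of all genes passed. With the block 15 rose and 6 fell in 1064 and 13 rose and 6 fell in 1014-Grpr, where 43.2% and 53.1% of all genes passed. The median log2 fold change of this list was 0.09, 0.37 and 0.25 in the 3 lines, where that over all genes was -0.01, -0.01 and -0.02. Vcl, encoding vinculin, rose by 1.22 ± 0.03 in 1057, 1.55 ± 0.22 in 1064 and 1.36 ± 0.09 in 1014-Grpr. Zyx, encoding zyxin, rose by 1.41 ± 0.20 in 1064 and 1.45 ± 0.08 in 1014-Grpr. Nedd9, a docking protein of focal adhesions, rose by 1.95 ± 0.07 in 1057, as did Fermt3, the kindlin of blood cells, by 1.16 ± 0.43, while the tensin gene Tns2 fell in 1064 (-0.90 ± 0.15) and the talin gene Tln2 in 1014-Grpr (-1.13 ± 0.20).

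Of 20 integrin ligands other than laminins and collagens, 9 rose and 1 fell of 14 tested in 1057, 2 rose of 13 in 1064 and 9 rose of 16 in 1014-Grpr, with a median log2 fold change of 0.31, 0.78 and 0.66. Those are 71.4%, 15.4% and 56.2% of the list, where 52.2%, 6.35% and 28.6% of all genes passed. With the block 9 rose and 1 fell in 1064 (76.9% of the list) and 9 rose and 2 fell in 1014-Grpr (68.8%), where 43.2% and 53.1% of all genes passed. Tnc, encoding tenascin-C, a ligand of alpha9 and alpha-v integrins, rose by 4.75 ± 0.10, 3.79 ± 0.52 and 5.52 ± 0.48 in these lines. The matricellular genes followed: Ccn1 rose by 4.19 ± 0.11 in 1057 and 5.48 ± 0.49 in 1014-Grpr, Ccn2 by 4.22 ± 0.35 in 1014-Grpr, Spp1, encoding osteopontin, by 1.83 ± 0.05 in 1057 and Tgfbi by 4.03 ± 1.05 in 1064. Of 24 laminin partners and other laminin receptors, 9 rose and 7 fell of 21 tested in 1057, 5 rose of 21 in 1064 and 3 rose and 1 fell of 16 in 1014-Grpr, with a median of 0.10, 0.26 and 0.18. Those are 76.2%, 23.8% and 25% of the list, where 52.2%, 6.35% and 28.6% of all genes passed, the last share of the list lying below that of all genes. With the block 10 rose and 2 fell in 1064 (57.1% of the list) and 10 rose and 3 fell in 1014-Grpr (81.2%), where 43.2% and 53.1% of all genes passed. Sdc1, a cell-surface syndecan, rose by 1.78 ± 0.22 in 1064 and 2.38 ± 0.21 in 1014-Grpr, where Sdc4 rose by 1.05 ± 0.09 and Plec by 1.05 ± 0.08. Ntn4, a netrin that binds laminin gamma1, rose by 2.08 ± 0.21 in 1057 and 2.21 ± 0.40 in 1064, Col4a3, a basement membrane collagen, by 2.19 ± 0.40 and 2.5 ± 0.49, and Ntng1 by 2.65 ± 0.30 in 1057. No gene of the 3 lists passed in 1181-Grpr, 1181-Ctrl or 1014-Ctrl.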

How the data were processed

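RNA was measured in 72 libraries of mouse melanoma lines by stranded polyA RNA-seq. Per the labels and the study's methods, the authors checked reads with FastQC 0.11.5, aligned them to mm10 (GRCm38) with STAR, and deposited raw counts per gene and transcript shares corrected for gene length and library size (TPM); 12 TPM columns of line 1057 were written with decimal commas and read as such. The version of STAR and the strand setting of the counting are not given in the sources used here. The members and gene lists were chosen with earlier results of these data known, and 1 gene of the membership rule and 1 marker are not reported here and are left out of the counts of members.

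Genes with at least 10 counts in at least 3 libraries were tested with edgeR 4.0.16 (quasi-likelihood test, TMM scaling, R 4.3.3), in 1 fit for each line, for each pair of lines (difference of the GRP effect) and for all 18 mock libraries, with Benjamini-Hochberg adjustment over all genes of the fit and a threshold of 0.05. Treatments within a line share libraries. The script was tested on simulated data. Named genes were those passing GRP against mock (every library's value where at least 2 lines pass), up to 5 of largest change in each other comparison, the most abundant of each role group, and 3 of each list per line. Samples were grouped by title, and depth ran from 19512882 to 46862053 counts. Where a group has 0 counts, 3 counts of a library correspond to at most 0.154 CPM, for counting error only.

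Replicate numbers were taken as pairing libraries in 1064, 1014-Grpr and 1181-Ctrl, where same-numbered libraries deviated together in each of 18 pairs (r at least 0.66, 0.49 and 0.85); the labels do not say what the number marks. Alternatives were DESeq2 1.42.0, the replicate block, 2 other filters, limma 3.58.1 on log2(TPM + 0.1), 1 fit of all libraries, a fold threshold, and leaving out each library or the 2 doubtful ones. Fits that left out each library in turn used no block.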

Additional observations from a re-analysis of the deposited data

Results flagged for a closer look

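For 14 member and line pairs the GRP effect differed between 2 lines by the test of the difference itself (edgeR, adjusted p under 0.05), and the values are differences of log2 fold changes. Higher in 1014-Grpr than in 1014-Ctrl were Itga5 by 1.34, Itga7 by 1.22 and Itgb1 by 0.42. Itga3, at 2.85, was under the count minimum in each of these lines and its value is a description. For Itga3 and Itga7 the call was lost without the library labelled 1014-Ctrl mock replicate 2, which held Grpr and Y-linked RNA against its label. Between 1057 and 1014-Grpr the differences were 2.0 for Lamb3, 0.80 for Itgb3, 0.74 for Itga6, -0.99 for Itga5, -0.88 for Itga2, -0.53 for Itga9 and -0.46 for Lama4. Lamb3 rests on 4, 4 and 6 counts in the 1057 mock libraries, all under the count minimum, and its value is a description. Between 1057 and 1064 they were 1.86 for Itga3, -0.76 for Lama4 and -0.51 for Itga5, and each of these 3 calls was lost without any 1 library of 1057. In the fits without the block, Lama4 was the 1 member that passed with GRP in opposite directions in different lines. Its change in 1057 was -0.09, a call lost without GRP replicate 2, GRP replicate 3 or mock replicate 1. With the block Itgb3 did so too, higher in 1057 and 1064 and lower in 1014-Grpr.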

How the results depend on the processing

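Of 34 member and line results for GRP against mock, 11 kept their direction and their side of the threshold in every alternative. Over their 442 alternatives, 72 lost significance and 0 reversed direction. For counts of members, 450 alternatives stayed within 1.5 times the main count and 82 did not, as follows; the cause was not tested except where fewer samples or a stricter rule set it.

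With the replicate block the count was 18 in 1064 for GRP against mock and 15 for GRP + RC against GRP, 14, 13 and 7 in 1014-Grpr for GRP against mock, GRP + RC against GRP and GRP + RC against mock, 9 for 1014-Grpr minus 1014-Ctrl, 10 for 1057 minus 1064 and 7 for 1064 minus 1014-Grpr. For these 3 differences 26.4%, 16.5% and 14.1% of all genes passed with the block. In the other comparisons the block kept the count within 1.5 times. The replicate numbers of 1057, 1181-Grpr and 1014-Ctrl did not meet the rule for pairing, with a correlation over 0.1 in 6, 15 and 15 of 18 pairs. All 12 libraries of 1014-Ctrl but 11 of 1181-Grpr and 5 of 1057 correlated best with their own number, a hint from the data and not the design.

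In 1 fit of all libraries, which shares the spread between lines, GRP against mock gave 8 members in 1057, 4 in 1014-Grpr and 1 in 1014-Ctrl, GRP + RC against GRP 1 in 1057, 2 in 1064 and 3 in 1014-Grpr, GRP + RC against mock 1 in 1057, 0 in 1014-Grpr and 1 in 1014-Ctrl, and RC against mock 0 in 1057 and 2 in 1014-Ctrl. The differences gave 2 for 1014-Grpr minus 1014-Ctrl, 1 for 1057 minus 1014-Grpr and 1 for 1057 minus 1064, and rest gave 2 for 1014-Grpr against 1014-Ctrl. No share of all genes is given for this 1 fit, so its counts cannot be set against a change over all genes. The 1014-Ctrl mock group in it holds the library labelled mock replicate 2, which held Grpr and Ddx3y against its label. The part of that library in the 1014-Ctrl calls of this fit was not tested. A fold threshold of log2 1 left 6, 0 and 2 members for GRP against mock in 1057, 1064 and 1014-Grpr, 1 and 2 for GRP + RC against GRP in 1057 and 1014-Grpr, 3 and 0 against mock, 1 for RC in 1057, 1 for 1057 minus 1014-Grpr, 1 for 1057 minus 1064, 11 at rest for 1057 against 1064 and 2 for 1181-Grpr against 1181-Ctrl. Lamb3, whose values against mock in 1057 are descriptions, was among the members this threshold left in 1057 against mock and for 1057 minus 1014-Grpr. At rest Itgae, Lama3 and Lamb3 were among the 11. Without a filter on low counts, 1064 gave 2 for GRP against mock, 1014-Grpr minus 1014-Ctrl gave 2 and 1057 minus 1064 gave 1. On the authors' TPM with limma, 1064 gave 2 for GRP against mock and 1014-Grpr 0 for GRP + RC against mock, which was also 0 with edgeR's own filter. DESeq2 gave 2 for GRP + RC against GRP in 1064, 1 for 1064 minus 1014-Grpr and 2 at rest for 1014-Grpr against 1014-Ctrl. Without the 2 doubtful libraries, 1181-Ctrl against 1014-Ctrl gave 15 at rest (49.9% of all genes), and 1014-Grpr minus 1014-Ctrl gave 11 with the replicate block (39.5% of all genes).

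Leaving out each library gave 1 to 4 members for GRP against mock in 1064, 2 to 5 and 0 to 0 for GRP + RC against GRP and mock in 1014-Grpr, 2 to 6 for 1014-Grpr minus 1014-Ctrl, 0 to 4 for 1057 minus 1064 and 0 to 2 for 1064 minus 1014-Grpr. At rest it gave 0 to 2 for 1014-Grpr against 1014-Ctrl, 7 to 15 for 1181-Ctrl against 1014-Ctrl and 3 to 5 for 1181-Grpr against 1181-Ctrl. Depth limited Lama3, Lamb3, Itga3 in the 1014 lines and Lamc3, which had few counts per library.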
